A study of Mus musculus with 27 samples.

Results

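Genes of the amyloid precursor, tau and prion proteins were followed in whole brain RNA of the inbred mouse strains C57 and DBA. The members were 8 listed genes, App, Aplp1, Aplp2, Mapt, Prnp, Psen2, Bace1 and Sorl1, and every probe set whose annotation carries one of these symbols or a synonym. Of the 8252 genes named on the array, 7 were members, with 10 of the 12488 probe sets. No probe set carried the name Bace1, which is not analysed here. A pair of sets listed as Alg3, also an old name of Psen2, was left out because its gene identifier is that of another gene. The labels describe 5 naive C57BL/2 males and 4 naive DBA/2J mice, all 10 weeks old, without giving the sex of the DBA mice. Each animal number of a strain had 1 array on the platform used, and labelled RNA was made from 5 ug of total RNA. The labels of all samples carry the same alternative name, so the strain was taken from the title.

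App encodes the amyloid precursor protein, a membrane protein of neurons that is cut by secretases, and Aplp1 and Aplp2 encode its close relatives. The amyloid beta peptide is released from the precursor by beta-secretase, the product of Bace1, and then by gamma-secretase, whose catalytic subunit is a presenilin such as that of Psen2. Sorl1 encodes SorLA, a sorting receptor that binds the precursor and carries it back from endosomes to the Golgi with the retromer complex. Mapt encodes tau, a protein that binds microtubules in axons and aggregates in Alzheimer's disease, and Prnp encodes the prion protein, a glycolipid-anchored protein at the surface of neurons.

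The signal of Sorl1 and Mapt was lower in DBA than in C57 brain, Sorl1 by 2.71-fold and Mapt by 1.59-fold at its brightest probe set. Probe sequences were not at hand, so whether DBA bases differ from the probes was not tested. App, Aplp2 and Prnp did not pass, and the strains overlapped at each. Psen2 was 1.23-fold higher without passing the test. Of the 8 tested member sets 2 passed the threshold, an adjusted p under 0.05 in the limma fit of all probe sets, and both were lower in DBA. The same fit called 2.50% of the 9316 sets tested, 1.61% as lower and 0.891% as higher. In 4 of the 8 tested member sets the strains did not overlap, 3 lower and 1 higher in DBA, against 6.45% of all tested sets, 3.61% lower and 2.84% higher, and 5 had an unadjusted p under 0.05, against 12.2%. As 3 of the 8 sets belong to Mapt, these are not independent. The members were also chosen with earlier results of these data known, so these counts are a description and not a test. The median log2 difference of the 8 sets was -0.20, against 0.01 over all sets.

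**Figure D1:**
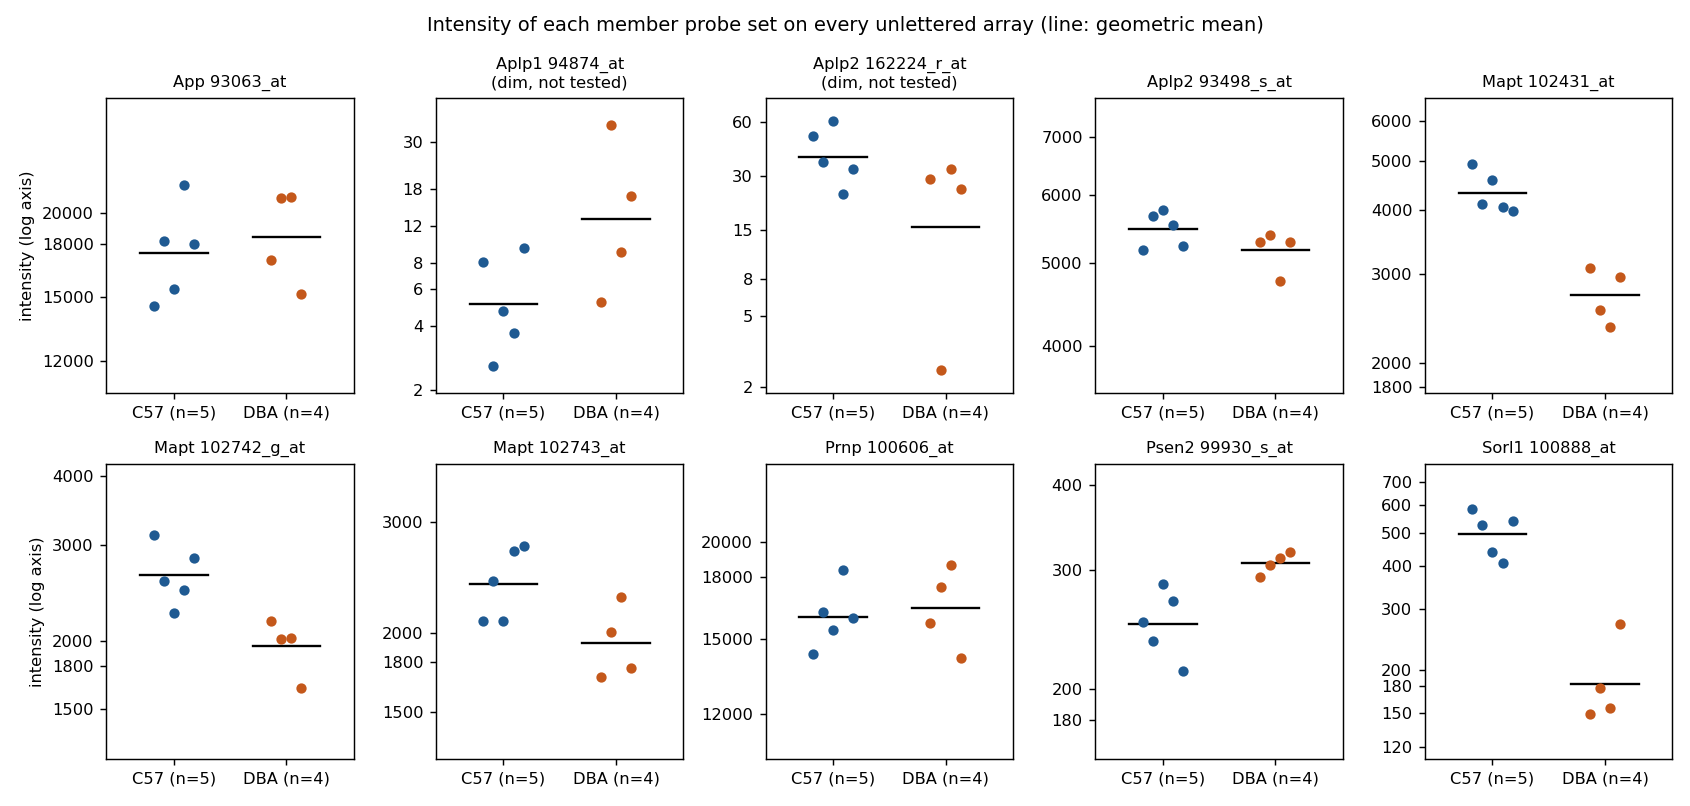
Intensity of each of the 10 member probe sets (log axis, a different range in each panel) on the 9 arrays, 5 of C57 (blue) and 4 of DBA (orange), with the geometric mean as a line. Sorl1, Mapt at 102431_at and 102742_g_at, and Psen2 show no overlap between the strains, with Sorl1 between 410 and 586 in C57 and between 150 and 273 in DBA.

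Median intensities of the arrays ran from 160 to 198, a span of 0.31 on the log2 scale. Correlations between any pair of arrays ran from 0.946 to 0.970 across probe sets. The deposited intensities have a like mean on all arrays without the top and bottom 2% of values. The depth of the arrays before scaling therefore cannot be compared. None of the cell type markers measured was at 0 on all arrays. Of the neuron markers 10 of 12 were on the array, and their summed intensity ran from 55067 to 58371 in C57 and from 54461 to 63833 in DBA. Of the 10 microglia markers 2 passed, C1qb (-0.85 ± 0.12) and C1qc (-0.65 ± 0.13), both lower in DBA. The median of the list was -0.10 with 4 markers above 0, among them Ctss (0.32 ± 0.12, adjusted p = 0.290). The summed intensity of 3 choroid plexus markers did not overlap, with 2157 to 4375 in C57 and 4730 to 5799 in DBA, and 0 of these markers passed in limma (1 at an unadjusted p under 0.05). Their part in the results was not tested. A measure of RNA quality differed between the strains. Signal at the 3' end over signal at the 5' end, averaged on the log2 scale over 4 control genes, was 0.83 in C57 and 0.65 in DBA (exact 2-sided permutation test, p = 0.0476). All 4 control genes had the lower ratio in DBA on average. By the same permutation test p was 0.0159 for Gapdh, 0.0635 for pyruvate carboxylase, 0.127 for transferrin receptor and 0.159 for beta-actin. In bulk tissue, fewer cells of a type and less RNA per cell cannot be told apart.

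The intensity at 100888_at, the only Sorl1 set, was 586, 526, 440, 410 and 541 in C57 animals 1 to 5. In DBA animals 1 to 4 it was 150, 177, 155 and 273. Every DBA animal lay below every C57 animal, and DBA animal 4 was the highest of its strain. The log2 difference was -1.44 ± 0.19 (SE; 95% interval -1.87 to -1.01; adjusted p = 0.00263 by limma), lower in 4 of 4 DBA animals. It ranked 85 among the 9316 sets by p. Without DBA animal 4 it was -1.63, and with any 1 array left out the adjusted p stayed between 0.000545 and 0.0133. With the 3' to 5' ratio as a covariate the difference was -1.45, as large as without it, and the adjusted p was 0.0752. The log2 SD of Sorl1 within strains was 0.22 in C57 and 0.40 in DBA, and its pooled SD of 0.31 was the largest of the 8 tested member sets.

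The nearest genes with a tested probe set in the order of the RefSeq table (assembly GRCm38.p6) were Crtam on one side, with 20 genes between, and Sc5d on the other, with 5 genes between. Sc5d encodes a desaturase of the last steps of cholesterol synthesis. Its set 102769_f_at had intensities of 382, 339, 369, 229 and 259 in C57 animals 1 to 5. In DBA animals 1 to 4 it had 80.0, 71.3, 135 and 53.8. The strains did not overlap, and Sc5d fell by 1.95 ± 0.26 on the log2 scale (adjusted p = 0.00284 by limma). At the brighter Sc5d set, 102768_i_at, C57 animal 5 and DBA animal 4 had the same intensity of 167. That set differed by -1.06 ± 0.27 (adjusted p = 0.0868) and passed with quantile normalization, median centring, the dimmest 50% left out, a trend in the variance model or C57 animal 5 left out (adjusted p 0.0245 to 0.0452). The call of 102769_f_at held with the 3' to 5' ratio as a covariate (-2.47, adjusted p = 0.0105). The suffix f_at marks sets that match families of similar sequences, and 102769_f_at was named after its values were seen. Crtam, an adhesion molecule of T cells, differed by 0.25 ± 0.36 (adjusted p = 0.857), and by -0.42 with the 3' to 5' ratio as a covariate. Among the 6 nearest tested genes on each side of Sorl1, 1 of 13 sets passed, that of Sc5d, against 2.50% of all tested sets.

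The 250 bases before the start of Sorl1 and of Sc5d are shown because Sorl1 and 1 set of its neighbour Sc5d passed as lower in DBA. Common control of these genes was not tested. The letters are those of RefSeq and of the C57BL/6J assembly (GRCm38.p6, minus strand, chr9:42124298-42124547 for Sorl1 and chr9:42264301-42264550 for Sc5d), so they show no DBA base. Capitals mark the GC box GGGCGG, bound by Sp factors, and the E box CACGTG, bound by basic helix-loop-helix factors, searched on both strands. No match of these motifs overlaps another in these windows.
Sorl1: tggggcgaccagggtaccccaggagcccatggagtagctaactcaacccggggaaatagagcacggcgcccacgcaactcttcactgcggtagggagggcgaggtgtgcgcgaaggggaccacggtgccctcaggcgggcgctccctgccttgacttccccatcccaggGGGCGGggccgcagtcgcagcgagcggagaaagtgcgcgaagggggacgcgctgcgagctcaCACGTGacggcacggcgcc
Sc5d: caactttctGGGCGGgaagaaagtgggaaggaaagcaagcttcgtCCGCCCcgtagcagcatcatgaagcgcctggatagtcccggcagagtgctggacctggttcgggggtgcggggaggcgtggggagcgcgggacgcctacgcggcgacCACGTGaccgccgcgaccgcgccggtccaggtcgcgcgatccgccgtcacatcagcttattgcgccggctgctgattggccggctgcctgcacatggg
The Sorl1 window held 1 GC box and 1 E box, and the Sc5d window held 2 GC boxes and 1 E box. Of all 32851 windows of this length, 32.7% held a GC box and 6.0% an E box. Each of these motifs holds a CG, and their shares among CpG-rich windows were not counted. Both windows were rich in CpG, with 26 in Sorl1 and 30 in Sc5d, at the 91.4th and 94.8th percentile of all windows. The motif TATAAA was in neither, and in 12.4% of all windows. A second start listed for Sorl1 held none of the 3 motifs. Windows were found for 6 of the 8 listed genes, and a GC box was in those of App, Aplp1, Aplp2, Prnp and 1 of the starts of Psen2, while the other Psen2 start held an E box. Among the windows of the members, that of Prnp alone held TATAAA.

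Mapt had 3 probe sets, and all were lower in DBA on average, also with quantile normalization or median centring. At 102431_at the intensity was 4923, 4112, 4574, 4065 and 3975 in C57 animals 1 to 5. In DBA animals 1 to 4 it was 3085, 2547, 2360 and 2951. The gap between the strains was wide, as the lowest C57 animal was above the highest DBA animal by more than the range of DBA. Mapt fell by 0.67 ± 0.12 on the log2 scale at this set (95% interval -0.93 to -0.40; adjusted p = 0.0138 by limma). The adjusted p was 0.0563 without DBA animal 2, and 0.144 with the 3' to 5' ratio as a covariate, where the difference was -0.73.

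At 102742_g_at, for which the annotation lists the same sequence record, Mapt had 3124, 2572, 2253, 2476 and 2840 in C57 and 2172, 2017, 2025 and 1642 in DBA. The strains did not overlap here either, with a difference of -0.43 ± 0.13 that did not pass (adjusted p = 0.158). At 102743_at it had 2086, 2414, 2085, 2697 and 2743 in C57 and 1706, 2007, 2278 and 1758 in DBA, and the strains overlapped (-0.31 ± 0.14, adjusted p = 0.387). The size thus ran from 1.24-fold to 1.59-fold lower over the sets, and the differences between sets were not tested.

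**Figure D2:**
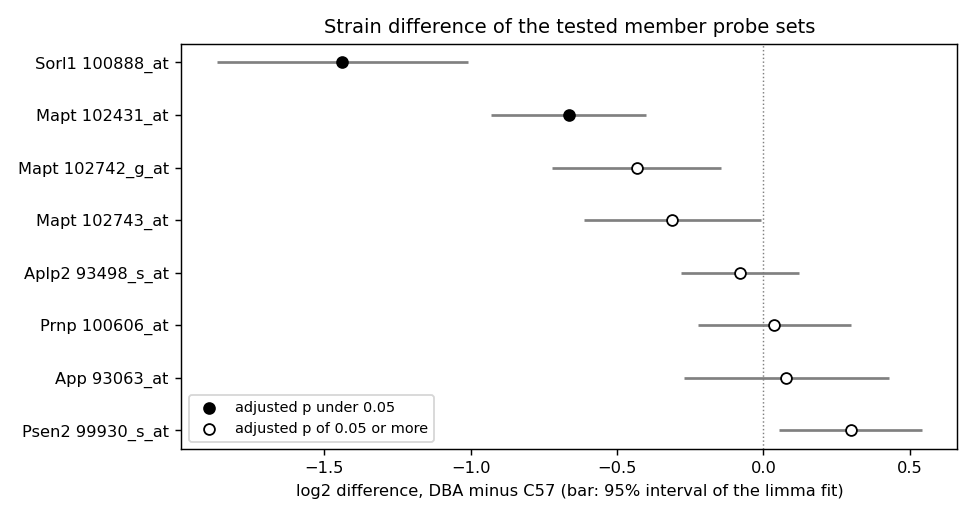
Log2 difference between DBA and C57 of the 8 tested member sets, with the 95% interval of the limma fit as a bar and filled points for an adjusted p under 0.05. Sorl1 (-1.44) and Mapt at 102431_at (-0.67) are filled, and the intervals of App, Aplp2 and Prnp include 0.

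Tau is made mainly by neurons and also by oligodendrocytes. Of the 10 tested neuron markers 0 passed the limma threshold and 1 had an unadjusted p under 0.05, with a median log2 difference of 0.00. Each marker was counted by its brightest set. Of the 7 tested oligodendrocyte markers 0 passed and 3 had an unadjusted p under 0.05. Over all tested sets 12.2% had an unadjusted p under 0.05. Of the 4 sets of Mobp, a myelin protein, 1 that was not the brightest passed (-0.84 ± 0.12, adjusted p = 0.00416), and it was named after its values were seen. The median of the 7 oligodendrocyte markers was -0.36 and 6 were below 0. The summed intensity of the list ran from 21351 to 29379 in C57 and from 21263 to 25070 in DBA. The part of oligodendrocyte markers in the Mapt result was not tested. The nearest gene to Mapt with a tested set on one side in RefSeq order was Crhr1, with 2 genes between. Crhr1, a receptor of corticotropin-releasing hormone, differed by 0.27 ± 0.13 (adjusted p = 0.451). On the other side the nearest was Myl4, a myosin light chain, with 3 genes between. Myl4 differed by -0.21 ± 0.19 at its brightest set, 100828_at. The other Myl4 set, 160487_at, chosen after its values were seen, fell by 1.58 ± 0.20 (adjusted p = 0.00186). It had 298, 364, 249, 326 and 404 in C57 and 73.3, 118, 122 and 130 in DBA. Of the 19 sets of the 6 nearest tested genes on each side of Mapt, 1 passed, that of Myl4. Of all tested sets 2.50% passed.

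**Figure D3:**
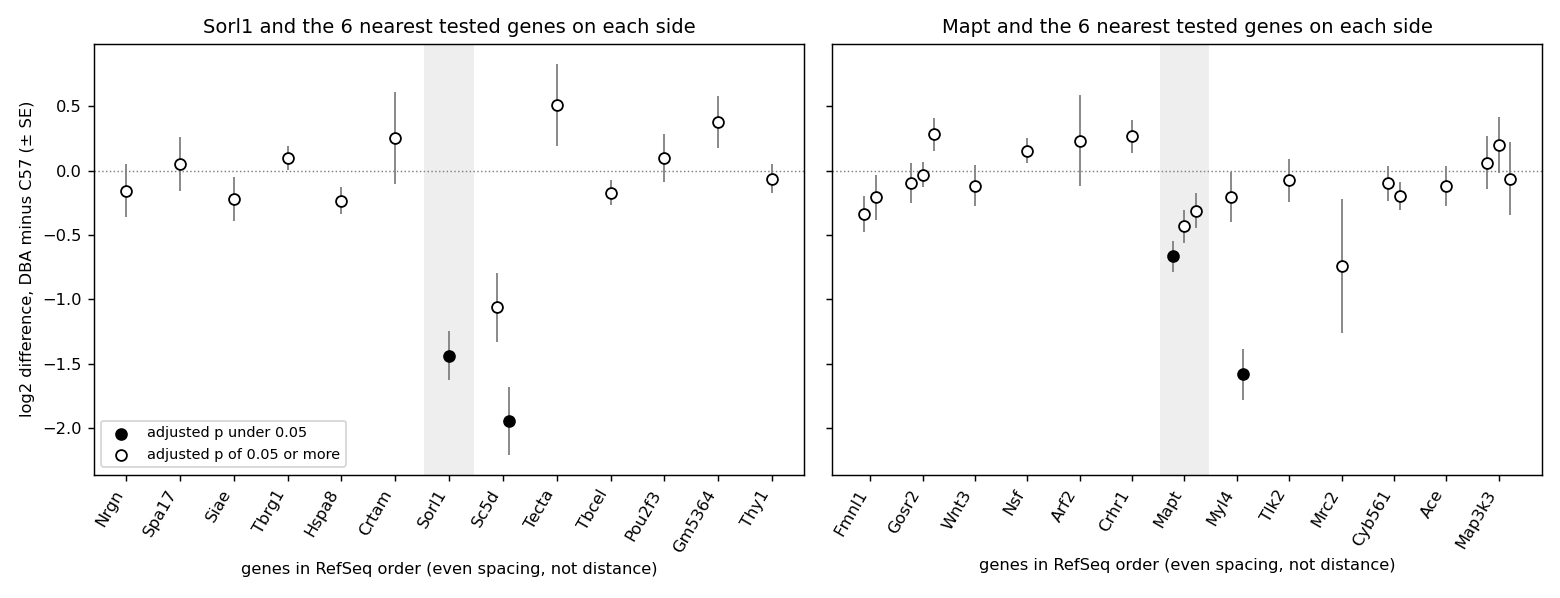
Log2 difference between DBA and C57, with its SE, of all tested sets of Sorl1 (left) and Mapt (right) and of the 6 nearest tested genes on each side, evenly spaced in RefSeq order. Filled points passed the threshold, and beside Sorl1 and Mapt these are 1 set of Sc5d (-1.95) and 1 set of Myl4 (-1.58).

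App was among the brightest sets of the array, at the 99.9th percentile. Its intensity at 93063_at was 14531, 18200, 15403, 22034 and 17996 in C57 and 17044, 21083, 21137 and 15150 in DBA. The strains overlapped over nearly their whole range. The log2 difference was 0.08 ± 0.16 (adjusted p = 0.903), and its 95% interval ran from -0.27 to 0.43, that is from 0.83 to 1.34 times the C57 level. The sign turned with quantile normalization (-0.04).

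At 93498_s_at Aplp2 had 5175, 5659, 5755, 5535 and 5234 in C57 and 5282, 5385, 4767 and 5286 in DBA. The values lay close together, and only 1.07% of all tested sets varied as little within strains (pooled log2 SD 0.07). The difference was -0.08 ± 0.09 (95% interval -0.28 to 0.12; adjusted p = 0.817). The suffix s_at of this set and that of Psen2 marks sets that may match several transcripts. The other Aplp2 set, 162224_r_at, and the only Aplp1 set, 94874_at, lay below the brightness limit of 35.4 and were not tested. The Aplp2 set had 23.7 to 60.4 in C57 and 2.50 to 32.7 in DBA. The Aplp1 set had 2.60 to 9.40 in C57 and 5.20 to 35.9 in DBA. Its mean log2 intensity lay at the 6.70th percentile of all sets, so this set was too dim to compare Aplp1 between the strains. Without the filter their adjusted p were 0.637 for Aplp2 and 0.491 for Aplp1.

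Psen2 (99930_s_at) had 251, 236, 286, 270 and 213 in C57 and 293, 305, 313 and 319 in DBA. All DBA animals were above all C57 animals, and the DBA animals differed little from each other (log2 SD 0.05, against 0.17 in C57). The difference was 0.30 ± 0.11 and did not pass (95% interval 0.05 to 0.54; adjusted p = 0.272 by limma, higher in 4 of 4 DBA animals). It kept its sign in all alternatives, between 0.24 and 0.35.

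Prnp (100606_at), like App, lay at the 99.9th percentile of brightness. It had 14359, 16262, 15394, 18373 and 15942 in C57 and 15740, 17487, 18649 and 14192 in DBA. The strains overlapped throughout, with a difference of 0.04 ± 0.12 (95% interval -0.22 to 0.30; adjusted p = 0.938), which turned to -0.05 with quantile normalization. In C57 the highest animal was number 4 for both App and Prnp and the lowest was number 1. In DBA animal 3 was the highest and animal 4 the lowest for both.

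For each member the sets with the most like pattern over the 9 arrays were found, by the root mean square difference of log2 values after centring each set on its mean. These sets share arrays and scaling, and the value is a description. The nearest to App were Eef1a1, a translation elongation factor, at 0.031 and Arf1, a small GTPase of the Golgi, at 0.056, against a median of 0.348 over 8391 sets of other genes. The nearest to Prnp were Ppp2r1a, a scaffold subunit of protein phosphatase 2A, at 0.051 and Spop at 0.053. For Psen2 they were Lypla1, a thioesterase, at 0.066 and Syn2, a synaptic vesicle protein, at 0.084. For Aplp2 they were Mef2d, a transcription factor, and Tmem199, both at 0.046. For Mapt they were 2700097O09Rik at 0.128 and the small nucleolar RNA host gene Snhg1 at 0.131, which differed by -0.70 and -0.60 between the strains. For Sorl1 they were Enpep, an aminopeptidase, at 0.197 and Nudt19 at 0.206, with differences of -1.15 and -1.49.

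Of the genes that act with the members, 106 on 6 lists were tested by their brightest probe sets, and 2 passed, 1 higher and 1 lower in DBA, against 2.23% of all genes by this rule. The median log2 difference over the 106 genes was -0.03, and 18 had an unadjusted p under 0.05, against 12.2% of all tested sets. The lower gene was Vps35, the core subunit of the retromer with which SorLA works. At 92640_at it had 3886, 4036, 4196, 3373 and 3308 in C57 and 2042, 2074, 1940 and 2396 in DBA. The strains were well apart, and Vps35 fell by 0.83 ± 0.11 on the log2 scale, or 1.78-fold (adjusted p = 0.00321 by limma, 0.0807 with the 3' to 5' ratio as a covariate). It was the 1 called gene of 18 tested APP adaptor and sorting genes, whose median was -0.09, with 12 below 0. The retromer subunits Vps26a (-0.10 ± 0.22, adjusted p = 0.909) and Vps29 (-0.23 ± 0.14, adjusted p = 0.575) of that list did not pass. The strains overlapped at both. Klc1, a kinesin light chain on the same list, passed at 97985_f_at (-0.53 ± 0.10, adjusted p = 0.0193) but differed by -0.04 ± 0.10 at its brightest set and by -0.14 ± 0.12 at 97984_i_at. This Klc1 call was lost with median centring (adjusted p = 0.0872), with the 3' to 5' ratio as a covariate (0.195), and on leaving out any of 5 arrays, C57 2 and 4 and DBA 1, 3 and 4 (0.0539 to 0.0622).

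The higher gene was Serpina3n, a serine protease inhibitor secreted by reactive astrocytes and related to the antichymotrypsin of amyloid plaques. It had 458, 414, 597, 539 and 400 in C57 and 926, 1015, 1176 and 911 in DBA. The strains did not overlap, and Serpina3n rose 2.11-fold (1.07 ± 0.15, adjusted p = 0.00303 by limma, 0.116 with the 3' to 5' ratio as a covariate). It was the 1 called gene of 14 tested amyloid beta clearance and binding genes, with a median of 0.05. Of the 8 astrocyte markers tested 0 passed and 2 had an unadjusted p under 0.05, against 12.2% of all tested sets. The summed intensity of the astrocyte markers ran from 29675 to 33674 in C57 and from 27852 to 32653 in DBA.

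Limma called 0 of 10 APP processing genes, 0 of 29 tau kinases and phosphatases, 0 of 22 microtubule proteins and 0 of 13 prion partners. An unadjusted p under 0.05 was found for 0, 5, 5 and 2 of them, against 12.2% of all tested sets. In each list the gene with the smallest p was, respectively, Psenen, a gamma-secretase subunit (-0.30 ± 0.16, adjusted p = 0.50), Ppp2cb, a catalytic subunit of protein phosphatase 2A (-0.39 ± 0.11, adjusted p = 0.143), Map2, the microtubule protein of dendrites (0.53 ± 0.20, adjusted p = 0.283), and Rpsa, the laminin receptor that binds the prion protein (-0.45 ± 0.10, adjusted p = 0.0508). Rpsa passed with quantile normalization, with the dimmest 50% left out, with a trend in the variance model or with 1 set per gene (adjusted p 0.0129 to 0.0474). The list medians lay between -0.05 and 0.01.

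**Figure D4:**
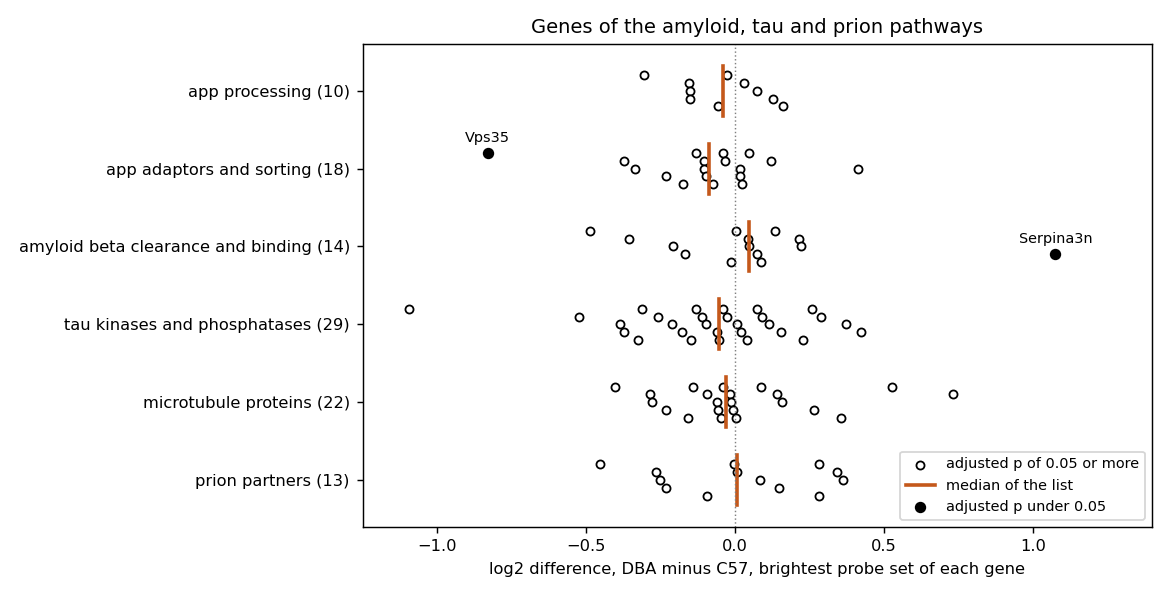
Log2 difference between DBA and C57 of the brightest probe set of each tested gene on 6 lists, with the number of genes in brackets, the median of each list as a bar and filled points for an adjusted p under 0.05. Vps35 (-0.83) and Serpina3n (1.07) are filled, and the other genes did not pass.

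The genes with a tested set nearest to the other members did not pass. Not all were adjacent, with from 0 genes between (App and Gabpa) to 29 (Aplp2 and Jam3). They were Gabpa (-0.31 ± 0.27) and Cct8 (-0.03 ± 0.13) for App, Tyrobp (-0.28 ± 0.25) and Psenen for Aplp1, and Jam3 (-0.41 ± 0.19) and Fli1 (-0.80 ± 0.39) for Aplp2. For Prnp they were Ap5s1 (0.10 ± 0.13) and Rassf2 (-0.15 ± 0.15), and for Psen2 Tfb2m (0.19 ± 0.27) and Itpkb (0.19 ± 0.11). For Bace1, itself without a set, they were Fxyd2 (-0.29 ± 0.21) and Pcsk7 (0.13 ± 0.33).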

How the data were processed

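Intensities of 9 arrays, scanned from whole brain RNA of 5 C57 and 4 DBA animals, were analysed on the linear scale as the authors deposited them. Scanner software, probe summary and normalization: not given in the sources used here. The deposited intensities have a mean of 500.3 on each array without the top and bottom 2% of values, a value alike on all arrays. The 18 arrays of the other platform were left aside. Precision is limited by how few arrays there are. Of the probe sets 10855 had 1 gene symbol, 396 several and 1237 none, and 10839 symbols were updated through gene identifiers with the RefSeq table of GRCm38.p6.

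The 66 control sets were left out of the test, intensities under the 1st percentile (1.70) were raised to it (0.977% of values), log2 was taken, and the dimmest 25% of sets by mean were left out, which kept 9316 sets (6864 genes). Strains were compared in R 4.3.3 by limma 3.58.1 (lmFit, then eBayes), DBA minus C57, 2-sided, with Benjamini-Hochberg adjustment over all sets tested. The fit was tested on simulated data, and figures were drawn with matplotlib 3.10.9. ± is the SE of a log2 difference, and folds are ratios of geometric means. The members and lists were chosen with earlier results of these data known. All sets of the members were named, from each list the genes past the threshold or that with the smallest p, the 2 most like sets of each member and its nearest tested gene on each side. Alternatives were other scaling, floors, filters, variance model and threshold, the number as a block, RNA quality as a covariate, 1 set per gene, an exact permutation test, and each array left out in turn.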

Additional observations from a re-analysis of the deposited data

Results flagged for a closer look

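Among the 20 groups of 4 or 5 animals formed by the 10 member sets and the strains, 2 held an animal far from the others of its strain, by a gap divided by the range above Dixon's 95% limit for 4 samples. Chance gives about 1 in 20. At the dim Aplp2 set 162224_r_at, DBA animal 2 was the lowest at 2.50, while DBA animals 1, 3 and 4 lay between 25.4 and 32.7 (ratio 0.902), and the log2 difference between the strains moved from -1.29 to -0.41 without it. At the bright Aplp2 set 93498_s_at, DBA animal 3 had 4767 against 5282 to 5385 (ratio 0.842), and the difference moved from -0.08 to -0.04 without it.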

How the results depend on the processing

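The 2 member calls, Sorl1 and Mapt, held under the other scalings, floors, filters, variance model and 1 set per gene, and Sorl1 alone passed at an adjusted p under 0.01, where 150 sets were called in all. Leaving out 1 array gave 1 to 2 member calls, 2 list genes and 185 to 231 sets. With 1 set per gene 154 were called of fewer tested. List genes called rose to 4 with the dimmest 50% left out or with a trend and robust variance, with Apba2 and Rpsa added. With the 3' to 5' ratio as a covariate limma called 82 sets, 0 of the members (3 at an unadjusted p under 0.05) and 0 list genes (10), with Sorl1 at -1.45 and Mapt at -0.73. The cause was not tested. The replicate block, which takes the animal number as a factor and so draws nothing from C57 animal 5, called 73 sets, 0 of the members (3) and 0 list genes (13), with Sorl1 at -1.41 (adjusted p = 0.0831). Same-numbered animals did not deviate together (correlations -0.17 to -0.01, 0 of 4 best with their own number), so no pairing by number was seen. These few correlations cannot show that none exists. By exact permutation the smallest p of 126 regroupings is 0.0159, which adjusts to 0.246, so that test cannot pass here.

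Of 202 member values under alternatives, 198 kept their direction. App (-0.0365) and Prnp (-0.0452) turned with quantile normalization, and Prnp ran from -0.024 to 0.11 with 1 array left out. With 1 array left out Cct8 ran from -0.11 to 0.024, Pcsk7 from -0.16 to 0.31, Crtam from -0.0396 to 0.43 and Klc1 (93565_at) from -0.0674 to 0.018. With the covariate Tyrobp was at 0.16 and Crtam at -0.42.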
